A study of Mus musculus with 4 samples.

Results

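G2/M-high N2a cells were the N2a barcodes with the largest share of transcripts from 12 genes read as signs of G2 and mitosis. N2a (Neuro-2a) is a mouse neuroblastoma line. Of the 2070 N2a barcodes with at least 2000 UMIs (unique molecular identifiers, which count captured transcripts) and at most 20% mitochondrial UMIs, the 310 with the highest score were taken as members. They came from 5706 cells kept by the same limits in the 3 lines of the experiment. The score was the share of a cell's UMIs in Top2a, Mki67, Cenpf, Tpx2, Ube2c, Nusap1, Cdk1, Kif11, Aurkb, Birc5, Hmmr and Cenpe. The members were therefore chosen by measured values of these same cells. They were compared, in genes outside the score, with the 1035 cells of the lowest 50% by score, called low-score cells here. The 725 cells in between, the middle 35%, were kept as an intermediate range.

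In a proliferating culture each cell passes through G1, S, G2 and mitosis, and many cell cycle genes are transcribed in only part of that round. Genes for the entry into S phase are switched on by E2F factors late in G1, histone mRNAs accumulate while DNA is copied, and the genes for chromosome condensation, spindle assembly and cytokinesis are released from repression by the DREAM complex and activated by B-MYB and FOXM1 in G2. Top2a untangles sister chromatids, Mki67 coats mitotic chromosomes, and Cenpf is a kinetochore protein, which is why the 3 are widely read as signs of G2 and M.

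The N2a cells were untreated, grew in DMEM with fetal bovine serum and antibiotics, and entered a CapSeq single-cell experiment in columns 1 to 4 of the BC1 plate, whose wells each give their cells a shared opening barcode. NIH/3T3 fibroblasts, grown in the same medium, and E14TG2a mouse embryonic stem cells (mESCs), grown on gelatin with LIF, CHIR99021 and PD0325901, filled the other columns. The lines were pooled into 1 library after this barcoding, and the reads were later split by BC1. No line had a replicate, and no sorting or synchronization is described. Values are therefore given without tests, and the 95% intervals are exact intervals that cover counting error only. The N2a matrix held 20662884 UMIs, of which the kept cells carried 85.1%. The members held 2696200 UMIs and the low-score cells 8303573. Levels are given as CPM, counts per 1000000 UMIs summed over the cells of a range. Ratios set members over low-score cells, with the 95% interval in brackets.

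The sequences before the transcription starts of the genes described below give the letters through which mitotic genes are usually discussed. The CHR element, TTTGAA or TTTAAA, is the site at which DREAM, B-MYB and FOXM1 complexes are bound, and it often stands near CCAAT boxes, which bind NF-Y. Within 250 bases before to 50 bases after the start of the canonical transcript, read on both strands from GRCm39 with GENCODE M39, CHR letters were present in 42 of the 67 mitotic list genes that were at least 2-fold higher in members (62.7%), in 16 of the 37 list genes under 2-fold (43.2%) and in 1915 of the 8892 measured genes with such a window (21.5%). Among all 21757 promoters of this length, 27.0% held them. CHR letters together with CCAAT were in 43.3% of the same 67 genes, in 29.7% of the 37 and in 8.92% of the measured genes. These are matches of letters and not shown sites, and genes were grouped on the same cells as the rule. The 160 bases that end just before the start are printed 5′ to 3′ for 5 raised genes whose CHR letters fall within them, with CHR and CCAAT letters of either strand in capitals.
Plk1: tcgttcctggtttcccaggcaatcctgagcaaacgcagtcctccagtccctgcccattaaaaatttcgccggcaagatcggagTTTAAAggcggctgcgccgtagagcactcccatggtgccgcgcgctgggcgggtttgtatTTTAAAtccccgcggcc
Ccnf: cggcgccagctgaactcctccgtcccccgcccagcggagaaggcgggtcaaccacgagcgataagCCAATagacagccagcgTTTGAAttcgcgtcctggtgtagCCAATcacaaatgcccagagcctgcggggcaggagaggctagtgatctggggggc
Kif23: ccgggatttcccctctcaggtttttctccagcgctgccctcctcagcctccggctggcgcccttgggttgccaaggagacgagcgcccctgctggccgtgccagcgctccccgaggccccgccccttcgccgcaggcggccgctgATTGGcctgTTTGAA
Aspm: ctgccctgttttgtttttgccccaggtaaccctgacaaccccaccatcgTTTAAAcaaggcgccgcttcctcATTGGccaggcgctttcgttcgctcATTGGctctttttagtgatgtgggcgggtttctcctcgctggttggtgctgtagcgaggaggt
Arhgap11a: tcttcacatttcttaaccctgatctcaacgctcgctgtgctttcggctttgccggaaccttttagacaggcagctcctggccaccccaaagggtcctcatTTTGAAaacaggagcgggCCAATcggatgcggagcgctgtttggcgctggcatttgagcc

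These stretches lie at chr7:121758486-121758645 (plus strand), chr17:24470436-24470595 (minus strand), chr9:61854074-61854233 (minus strand), chr1:139382326-139382485 (plus strand) and chr2:113679046-113679205 (minus strand) of GRCm39. The CHR letters began 77 and 17 bases before the start in Plk1, 78 in Ccnf, 6 in Kif23, 111 in Aspm and 60 in Arhgap11a. The ratios of these genes lay between 4.42 and 6.01. The same letters also stood before 2 mitotic genes with ratios close to 1, Ccnb2 at 1.23 and Ube2s at 1.26. Their stretches are shown for that contrast.
Ccnb2: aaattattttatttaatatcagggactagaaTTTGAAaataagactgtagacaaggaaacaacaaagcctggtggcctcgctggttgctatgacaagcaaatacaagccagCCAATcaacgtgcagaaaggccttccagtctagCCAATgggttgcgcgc
Ube2s: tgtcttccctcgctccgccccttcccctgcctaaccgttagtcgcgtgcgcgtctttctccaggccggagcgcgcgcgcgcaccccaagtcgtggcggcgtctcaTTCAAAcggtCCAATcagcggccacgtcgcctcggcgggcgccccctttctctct

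They lie at chr9:70328875-70329034 (minus strand) and chr7:4815590-4815749 (minus strand). E2F letters, taken as TTTGGCGC, TTTGCCGC, TTTCGCGC or TTTCCCGC on either strand, were in 17 of the 53 measured genes of the S phase list (32.1%), in 4 of the 67 raised mitotic genes (5.97%) and in 4.37% of the measured genes. Among all promoters of this length, 2.82% held them. The replication helicase gene Mcm5, whose ratio was 0.759, is shown with its overlapping E2F matches in capitals.
Mcm5: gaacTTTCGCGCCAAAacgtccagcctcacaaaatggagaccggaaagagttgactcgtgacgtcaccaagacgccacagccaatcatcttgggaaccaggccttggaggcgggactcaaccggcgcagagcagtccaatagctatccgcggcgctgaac

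This stretch lies at chr8:75835980-75836139 (plus strand).

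The score is a continuous range and not a separate class of cells. Its median was 0.539% of UMIs in members, 0.338% in the middle range and 0.0924% in low-score cells. The lowest member had 0.458% and the highest cell outside the members 0.457%. Within 10% of this limit lay 223 cells, of which 102 were members. In counts, members had a median of 37.5 score UMIs, from 10 to 215, against 25 and 6 in the other ranges, and 104 low-score cells had 0. A median of 10 of the 12 score genes was detected in a member, 8 in a middle cell and 4 in a low-score cell. The highest scores, up to 1.19%, were found in cells with few UMIs, where few molecules decide the share.

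**Figure D1:**
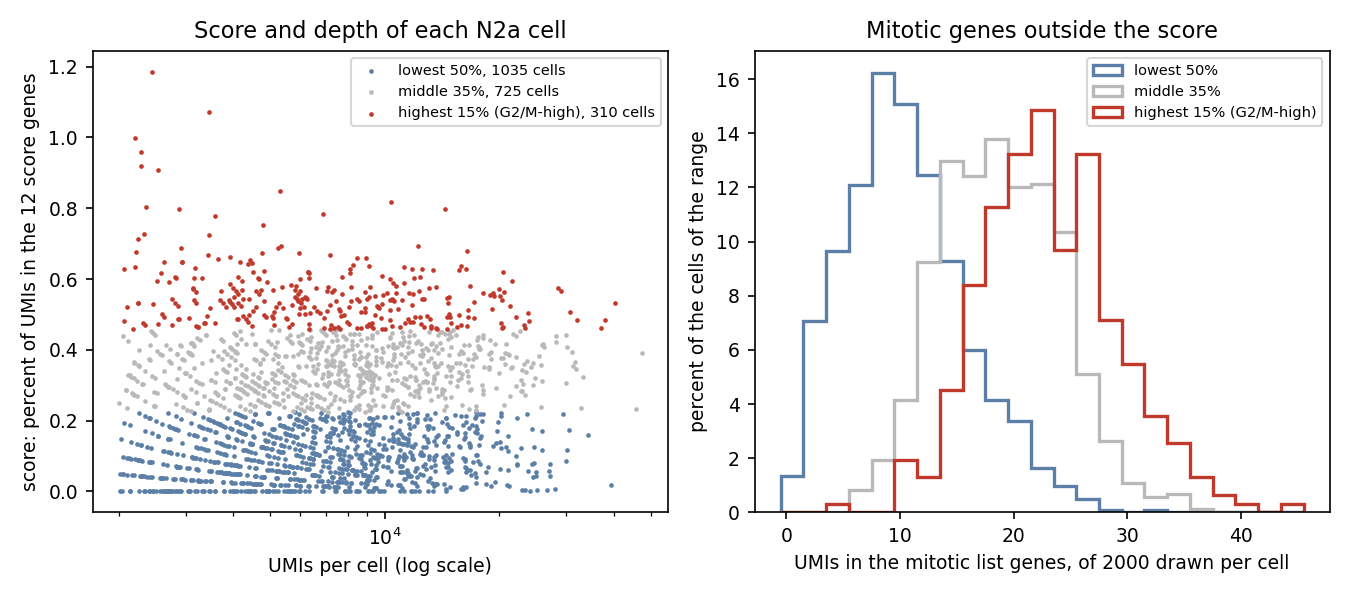
Left, the score of each of the 2070 N2a cells in percent against its UMIs on a log scale, coloured by range: the 3 ranges meet without a gap. Right, the distribution of UMIs in the 107 mitotic list genes outside the score after 2000 UMIs were drawn per cell: the medians were 10, 19 and 23, and the ranges overlapped.

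Depth differed little between the ranges. The median was 6904 UMIs per cell in members, 7410 in the middle range and 6505 in low-score cells, and the mean was 8697 in members against 8023 in low-score cells. The median mitochondrial share was 2.03%, 2.06% and 2.24%. When every cell was thinned to 2000 UMIs, which left out 0 cells, members had a median of 1468 genes detected and low-score cells 1434. Members were found at all 32 BC1 sequences of the N2a matrix, with 3 to 17 per sequence, or 5% to 27.0% of its kept cells. No barcode was shared between the matrices of the lines (0 barcodes). The split of reads by BC1, which is part of each barcode, fixes this, so it says nothing about mixing or doublets. Doublets were not called.

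Of the 3 label genes, Top2a was at 299 CPM in low-score cells, 1256 in the middle range and 1762 in members, Mki67 at 153, 538 and 784, and Cenpf at 77.8, 348 and 698. These values repeat the rule. The spindle protein gene Nusap1 stood farthest apart among the 12, with 16.7 CPM in low-score cells and 175 in members, and the ubiquitin-conjugating enzyme gene Ube2c least, with 92.1 and 192. When the members were chosen on a random 50% of each cell's UMIs and the 12 genes were read in the remaining 50%, the ratio of their sum was 4.28 (4.12 to 4.44), where the full counts gave 5.35 (5.21 to 5.50). The choices on 50% of the UMIs and on all UMIs shared 235 of 310 members (75.8%).

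Outside the score, most of the mitotic genes measured were higher in members, by amounts that differed between genes. Of 9165 genes with at least 10 CPM over all kept N2a cells, 140 (1.53%) were at least 2-fold higher in members and 51 (0.556%) at least 2-fold lower. The median log2 ratio over all 9165 was 0.029. In 5 lists of mitotic genes, which share no gene with the score, 67 of the 104 genes at this level were at least 2-fold higher, 0 were at least 2-fold lower, and the median log2 ratio was 1.32. Sums of a list cover all of its genes in the matrix, also those under 10 CPM. For the 107 genes of the mitotic lists the sum was 5221 CPM in low-score cells, 9547 in the middle range and 11594 in members, a ratio of 2.22 (2.19 to 2.25). At each of the 32 BC1 sequences the sum was higher in members, by 1.74 to 2.69-fold. The BC1 sequences belong to 1 library and are no replicates, and since the members were chosen on the same cells these counts describe the range and test nothing. The size of single ratios moved with the comparison range. The log2 ratio of Ckap2l, a spindle protein gene, was 2.76 against low-score cells, 3.64 against the lowest 25% and 1.38 against all other kept cells, and that of Prc1, a cytokinesis gene, was 2.59, 3.78 and 1.37. Against all other kept cells, Cdc20 (0.97), Bub1 (0.88) and Ccna2 (0.75) were short of 2-fold.

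Among cyclins, CDK regulators and mitotic kinases, 14 of 19 genes were at least 2-fold higher. Ccnb1, the cyclin that carries CDK1 into mitosis, was at 58.3 CPM in low-score cells, 162 in the middle range and 283 in members, a ratio of 4.86 (4.33 to 5.46). Ccna2, the cyclin of S phase and G2, was at 91.6, 172 and 214 CPM, a ratio of 2.34 (2.09 to 2.61). Aurka, needed for centrosome maturation and spindle poles, was at 15.1, 52.0 and 88.6 CPM, with a ratio of 5.89 (4.72 to 7.37), and Plk1, which acts from mitotic entry to cytokinesis, was at 19.5, 55.2 and 102 CPM, with a ratio of 5.23 (4.29 to 6.39). Ccnf, which gives a cyclin-like ubiquitin ligase subunit, had a ratio of 4.42. The list was not uniform. Ccnb2, a second mitotic cyclin, was at 57.1, 49.5 and 70.1 CPM, a ratio of 1.23 (1.03 to 1.46), and was higher in members at 22 of 32 BC1 sequences. Wee1, the kinase that holds CDK1 inactive, was at 50.9 CPM in low-score cells and 50.4 in members.

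Per cell the levels were sparse. After thinning to 2000 UMIs, a Ccnb1 UMI was found in 38.1% of members, 25.7% of middle cells and 9.47% of low-score cells, and an Aurka UMI in 21.3%, 8.83% and 2.42%. Without thinning, the shares of cells with a Ccnb1 UMI were 70.3%, 59.6% and 29.7%. For Ccnb2 the thinned shares were 11.3%, 9.93% and 10.6%. In the same thinned cells, members had a median of 23 UMIs from the mitotic lists and low-score cells 10, and 243 members (78.4%) were above the 90th percentile of the low-score cells, which was 18. Free RNA can add such UMIs to any cell. The 182565 N2a barcodes with under 500 UMIs had 0.295% of their UMIs in the 12 score genes. Summed over cells, the share was 0.260% in all kept N2a cells, 0.101% in the low-score cells and 0.541% in members. The part of free RNA in the shares was not tested.

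The spindle checkpoint, APC/C and separase list had 8 of 15 genes at least 2-fold higher, with a median log2 ratio of 1.16. The shugoshins Sgo1 and Sgo2a, which protect cohesin at centromeres, were at 28.2 and 37.7 CPM in low-score cells and at 110 and 139 in members. The checkpoint kinase gene Ttk had a ratio of 3.63 and the separase gene Espl1, whose protease opens cohesin at anaphase, one of 3.25. Cdc20, the activator of the APC/C, was at 16.5, 31.3 and 45.2 CPM, a ratio of 2.74 (2.13 to 3.53), and the checkpoint kinase gene Bub1 at 55.8, 119 and 154 CPM, a ratio of 2.75. Pttg1, the separase inhibitor, was level between low-score cells and members, with 75.5 and 74.9 CPM, and lower in the middle range at 59.7. Pttg1, Wee1 and Zwint were the 3 genes of the mitotic lists whose ratio was not above 1.

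In the kinetochore, centromere and chromosomal passenger list, 14 of 34 genes were at least 2-fold higher, the smallest share of the 5 lists, and the median log2 ratio was 0.84. Spc25 and Ndc80, both of the NDC80 complex that grips microtubules, had ratios of 4.48 and 4.07, and Incenp, the scaffold that holds Aurora B, one of 4.47. Zwint, a kinetochore linker, went the other way with 180 CPM in low-score cells and 160 in members, a ratio of 0.889 (0.797 to 0.990).

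Spindle and kinesin genes were higher almost throughout, 20 of 23 by at least 2-fold, with a median log2 ratio of 1.68. Ckap2l was at 17.1, 79.3 and 116 CPM, a ratio of 6.77 (5.53 to 8.31), the largest of the 5 lists in this comparison. Aspm, which organizes spindle poles and is known for microcephaly, was at 62.4, 189 and 316 CPM, a ratio of 5.06. The motor genes Kif18a and Kif2c, whose products shorten microtubules, had ratios of 5.11 and 4.95, whereas Numa1, a spindle pole protein that also belongs to the interphase nucleus, had one of 1.13 (0.997 to 1.28).

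Of the cytokinesis genes, 11 of 13 were at least 2-fold higher. Prc1, which bundles the microtubules of the central spindle, was at 51.3, 206 and 309 CPM, a ratio of 6.03 (5.36 to 6.79). Kif23, the centralspindlin motor, was at 23.0, 79.3 and 138 CPM, a ratio of 6.01 (5.04 to 7.20). Racgap1, its partner in centralspindlin, differed far less, with 459, 539 and 555 CPM and a ratio of 1.21 (1.14 to 1.29). Diaph3, a formin that builds actin filaments, had a ratio of 1.44. In the low-score cells these 2 genes, with Diaph3 at 341 CPM, held most of the 1219 CPM of the list, and the ratio of its sum was 2.15 beside a median log2 ratio of 1.74 over its genes.

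**Figure D2:**
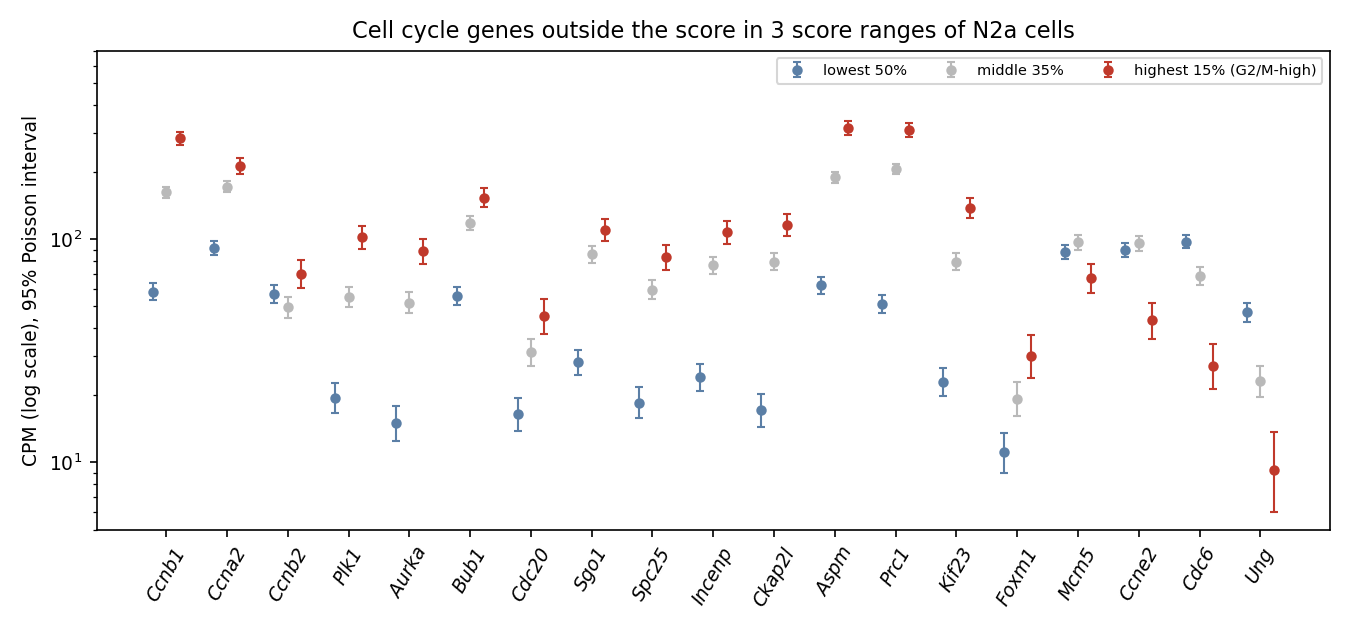
CPM on a log axis of 19 named cell cycle genes outside the score in the lowest 50%, middle 35% and highest 15% of N2a cells, with exact 95% Poisson intervals. The mitotic genes climb from range to range except Ccnb2, and Ccne2, Cdc6 and Ung are lowest in members.

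Of 18 condensin and cohesin genes, 5 were at least 2-fold higher, and those named by the rule were Ncapg (2.68), Ncaph (2.50), Smc4 (2.14) and Esco2 (2.34). The first 3 encode condensin subunits and Esco2 the acetyltransferase that locks cohesin onto sister chromatids. The cohesin genes Stag2 and Wapl had ratios of 0.869 and 1.01, and the median log2 ratio of the list was 0.26. Of 16 nuclear envelope and chromatin genes only H2ax, the histone variant of DNA damage signalling, passed 2-fold, with 15.5 CPM in low-score cells and 60.8 in members, a ratio of 3.92 (3.09 to 4.97). Hmgb2, an abundant chromatin protein, was at 566, 900 and 1111 CPM, a ratio of 1.96 (1.87 to 2.05), and the lamin gene Lmna at 96.0 and 60.5 CPM, a ratio of 0.630 (0.529 to 0.746). Of 15 transcription factor genes of the G2/M program, only Foxm1 passed 2-fold, with 11.1, 19.3 and 30.0 CPM and a ratio of 2.71 (1.99 to 3.70). Lin9 had a ratio of 1.49 and E2f7 one of 0.892. The sum of these 15 genes had a ratio of 1.09 and changed sides when members were set against all other cells or when Top2a was left out of the score. Of 11 tubulin and stathmin genes, only Tuba1c passed 2-fold (2.70, 2.05 to 3.56), and Tuba1a was at 0.911.

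**Figure D3:**
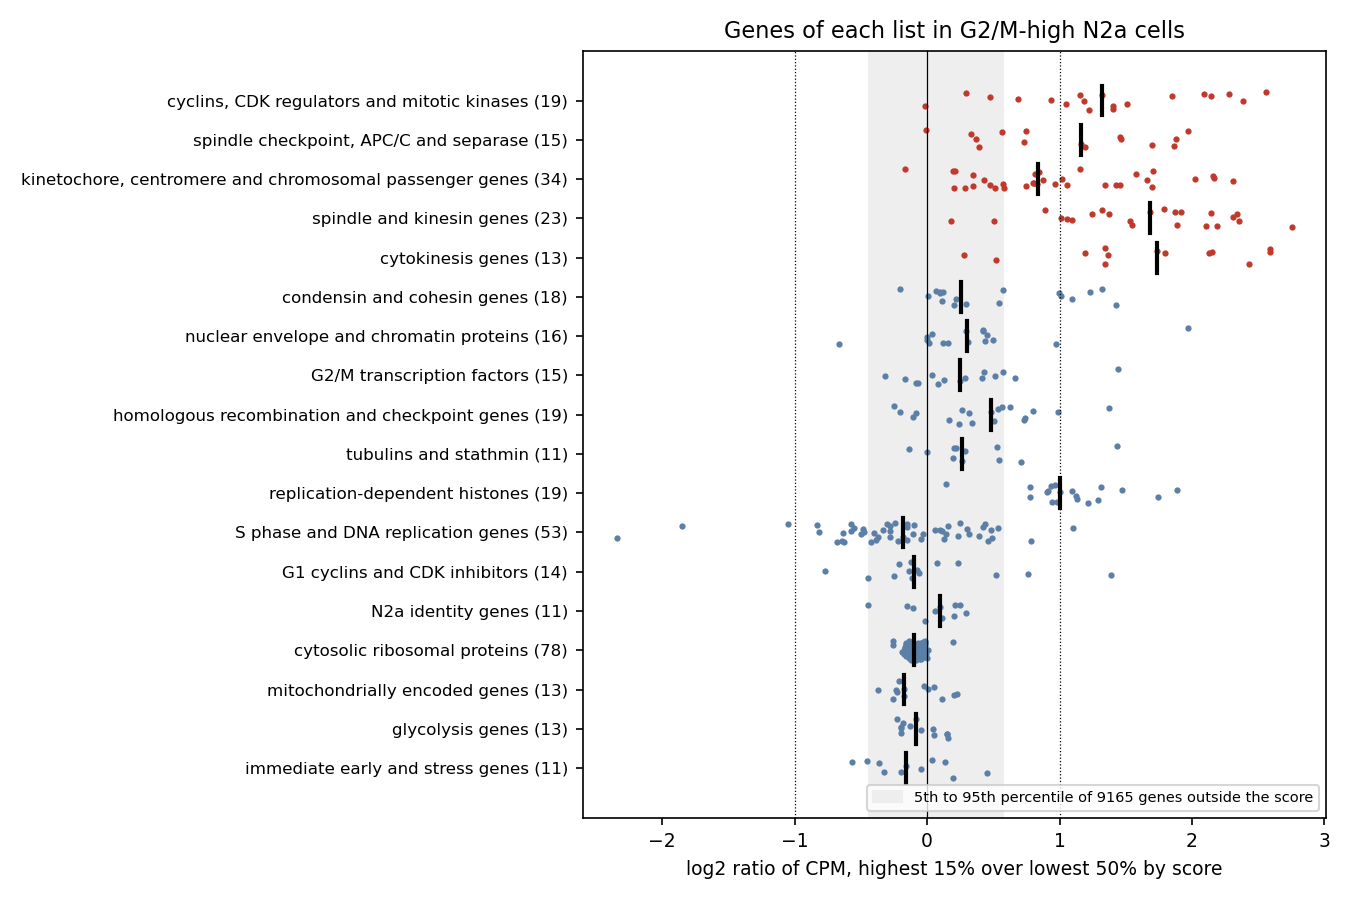
Log2 ratio of CPM of each gene (points) and the median (bar) in 18 lists, with the number of genes at 10 CPM or more in brackets; red marks the 5 mitotic lists. The grey band holds the 5th to 95th percentile of all 9165 genes, from -0.44 to 0.57, and dotted lines mark 2-fold.

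Genes of S phase went both ways in members, with 19 of 53 ratios above 1 and 34 below. The 53 measured genes of the S phase list summed to 5768 CPM in low-score cells, 6414 in the middle range and 5012 in members, a ratio of 0.869 (0.852 to 0.886), but against the lowest 25% of cells the log2 ratio of the sum was 0.16, on the other side of 0. The sum was lower in members at 24 of 32 BC1 sequences and higher at 8, with ratios from 0.568 to 1.39. Over all tested genes, 1.53% were at least 2-fold higher and 0.556% at least 2-fold lower. Of the S phase genes 1 was at least 2-fold higher and 3 at least 2-fold lower, and the median log2 ratio was -0.18. The 3 lower ones were Ung, Cdc6 and Ccne2. Ung, a uracil DNA glycosylase, was at 47.1, 23.1 and 9.27 CPM, a ratio of 0.197 (0.126 to 0.295) with 25 UMIs in members. Cdc6, which licenses replication origins, was at 97.5, 68.7 and 27.1 CPM, a ratio of 0.278 (0.215 to 0.353), and was lower in members at 31 of 32 BC1 sequences. Ccne2, a cyclin of S phase entry, was at 89.96, 96.2 and 43.4 CPM, a ratio of 0.482 (0.394 to 0.587). It fell short of 2-fold under 10 of 18 other settings of the cell filter, score, comparison range, scaling or matrix, with log2 ratios from -1.27 to -0.34. The gene at least 2-fold higher was Dbf4, the activator of the CDC7 kinase, with a ratio of 2.15. The clamp gene Pcna was at 170, 206 and 146 CPM, a ratio of 0.859 that turned to a log2 ratio of 0.17 against the lowest 25%. Of the 310 cells with the highest share of UMIs in the S phase list, which are 15% of all kept N2a cells, 20 were members, or 6.45% of the members. The middle range held 143 of them (19.7% of its cells) and low-score cells 147 (14.2%), a share close to that over all cells.

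As a sum, histone genes were highest in the middle range, like the S phase list. The replication-dependent histones, whose mRNAs accumulate with DNA synthesis and mostly end in a stem-loop and no poly(A) tail, were at 1154 CPM in low-score cells, 2893 in the middle range and 2245 in members, a ratio of 1.94 (1.88 to 2.01) in a library whose labels give poly(A) RNA. The sum was higher in members at 30 of 32 BC1 sequences, with ratios from 0.724 to 5.06. Of 19 such genes at this level, 10 were at least 2-fold higher and 0 lower. The linker histone gene H1f5 held the most UMIs, at 386 CPM in low-score cells and 756 in members. Core histone genes are near-identical copies, so that reads may be split between them and single genes such as H2bc11, with 42 UMIs in members, are uncertain. The histone sum leaned on Top2a in the score and on the comparison range, with a log2 ratio of 0.96 as computed, 0.44 when Top2a was left out, 0.22 against all other cells and 1.84 against the lowest 25%. Of 19 genes of homologous recombination and checkpoints 1 was at least 2-fold higher, the checkpoint kinase gene Chek2 (2.59, 1.84 to 3.61), and the median log2 ratio of that list was 0.48.

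When all N2a cells were ordered by score and divided into 10 groups of 207 cells, numbered from lowest to highest, the gene groups had their highest sums at different places. The S phase list was at 2977 CPM in group 1, 7309 in group 6 and 4944 in group 10. The histones were at 411 CPM in group 1, 3108 in group 7 and 2272 in group 10. The mitotic lists were higher in each group than in the one before, from 2655 to 11756 CPM. The low-score cells, groups 1 to 5, thus held cells low in S phase genes beside cells high in them. Ung, Cdc6, Ccne2 and E2f2 were summed after their values were seen because each was at least 2-fold lower in members than in low-score cells, a choice that by itself favours a high sum in groups 1 to 5. They were at 83.4 CPM in group 1, 372 in group 4 and 92.0 in group 10. Ribosomal protein genes stayed between 67122 and 74242 CPM.

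**Figure D4:**
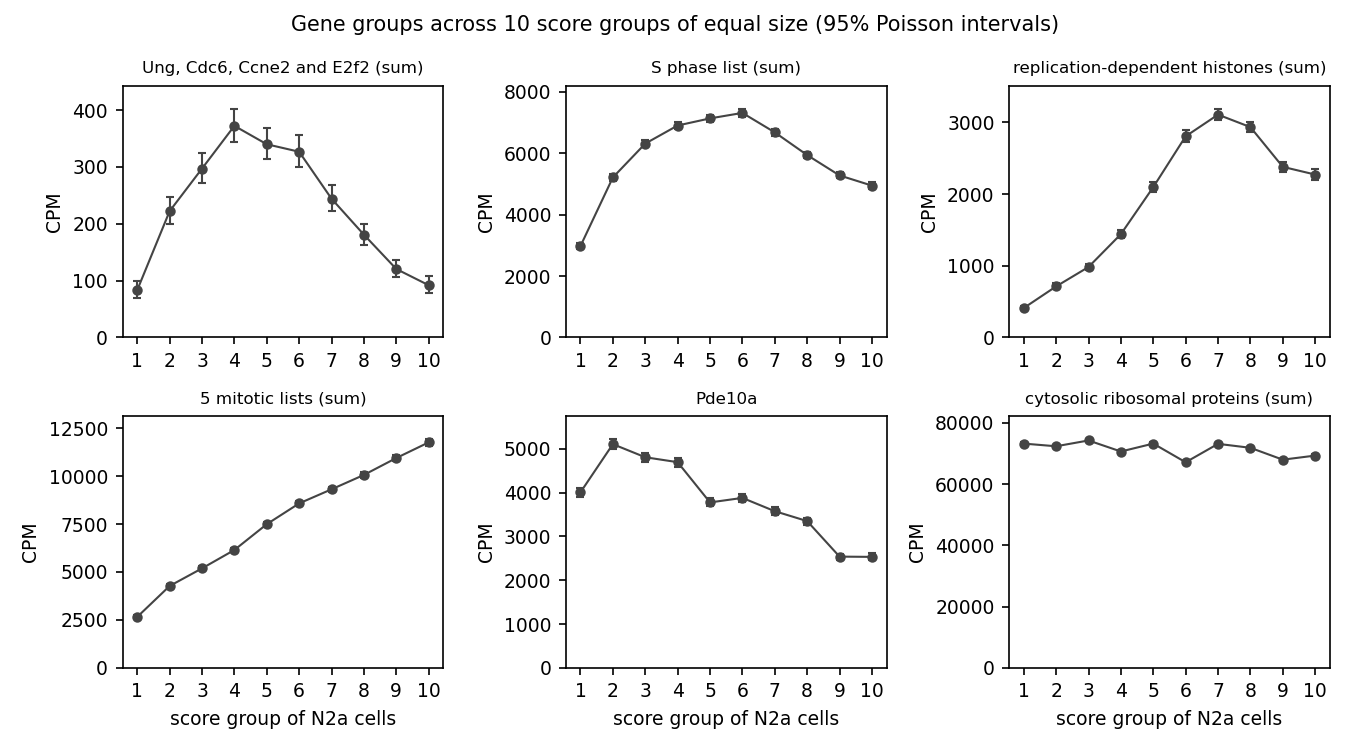
Summed CPM of 5 gene groups and of Pde10a in 10 groups of 207 N2a cells by score, from lowest (1) to highest (10), with exact 95% Poisson intervals. The highest sum lies in group 6 for the S phase list, 7 for the histones and 10 for the mitotic lists. Ung, Cdc6, Ccne2 and E2f2 were chosen for being lower in members than in low-score cells.

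Of the genes at least 2-fold higher, 52 were in no list, among 8768 such genes. Prr11 was at 9.51, 35.2 and 68.2 CPM, a ratio of 7.17 (5.48 to 9.46), the largest outside the lists among genes with at least 20 CPM. Arhgap19, a GTPase activating protein of cytokinesis, was at 14.6 and 66.0 CPM in low-score cells and members, and the paralogs Depdc1a and Depdc1b were at 15.4 and 68.2 and at 12.2 and 46.7 CPM. Cdca2, which recruits a phosphatase to anaphase chromatin, had a ratio of 4.43, the ubiquitin ligase gene G2e3 one of 3.58, Rtkn2 3.37, Ccdc18 2.77, Shcbp1 2.74 and Ube2t, the E2 enzyme of the Fanconi anaemia pathway, 2.69. All 10 were also above 1 in NIH/3T3 and mESCs. In their promoters, the 50 of the 52 genes with a window held CHR letters in 40% and CCAAT letters in 62%, where 21.5% and 40.0% of the measured genes did. In the mitotic lists CCAAT letters alone did not follow the ratio, with 58.2% of the genes at least 2-fold higher and 64.9% of those under 2-fold.

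Of the 51 genes at least 2-fold lower, 3 were in a list, all in that of S phase. Of all 9165 tested genes, 8768 were in no list. Outside the lists the smallest ratios were a mixed set. Dnah12, an axonemal dynein gene, was at 29.3, 21.0 and 8.53 CPM, a ratio of 0.291 (0.181 to 0.448). Vamp1, a synaptic vesicle gene, was at 46.6, 25.5 and 14.5 CPM, a ratio of 0.310 (0.217 to 0.432). Itgb6, an integrin subunit gene, was at 53.5, 48.2 and 20.03 CPM, a ratio of 0.375 (0.277 to 0.498), and Nr4a2, a nuclear receptor of neurons, at 50.3, 29.9 and 19.7 CPM, a ratio of 0.390 (0.288 to 0.521). Ovgp1, 1700010I14Rik, Gm10660, Acacb, Stmn4 and Cspg5 had ratios from 0.365 to 0.392. A more abundant gene was named after its values were seen. Pde10a, a cyclic nucleotide phosphodiesterase gene, was at 4472 CPM in low-score cells, 3476 in the middle range and 2406 in members, a ratio of 0.538 (0.524 to 0.552) just short of 2-fold, and was lower in members at 31 of 32 BC1 sequences. Along the 10 score groups it was at 4008 CPM in group 1, 5107 in group 2 and 2533 in group 10. Its ratio was 0.917 for the fibroblasts and 0.627 for the mESCs. Tiam2, on the same chromosome 17 and also named after its values were seen, was at 338 and 173 CPM. Over 441 genes of chromosome 17 the median log2 ratio was 0.020 and that of their sum -0.107. The nuclear RNA Malat1, named in the same way, was at 1665, 2442 and 2817 CPM, a ratio of 1.69 (1.65 to 1.74), and was higher in members at all 32 BC1 sequences.

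Of 18 N2a identity genes 11 reached 10 CPM, and 0 of them differed by 2-fold, where 1.53% of all tested genes were higher and 0.556% lower by that much. Hand2, a transcription factor of sympathetic neurons, was at 400, 383 and 464 CPM, a ratio of 1.16, and Gata3, from the same lineage, was under 10 CPM in the kept cells. The sum of the list had a ratio of 0.906 and the median log2 ratio of its genes was 0.10, on the other side of 0. Along the 10 score groups the sum was 8818 CPM in group 1 and 6834 in group 10. Gm30835, the gene of the list with the most UMIs, was at 3875 CPM in low-score cells and 2839 in members. The mESC markers summed to 27 CPM in low-score cells and 27.1 in members, and of the 10 markers only Klf4 reached 10 CPM. Of the 10 NIH/3T3 markers only Fn1 did, at 99.0 and 130 CPM. Their part in the results was not tested.

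Housekeeping groups differed by little and partly by the scale. The 80 cytosolic ribosomal protein genes had a ratio of 0.937 on the CPM scale and 1.02 as UMIs per cell. The 13 glycolysis genes also had 0.937 and 1.02, so the side of 1 depended on the scaling. The median log2 ratio of all tested genes moved likewise, from 0.029 to 0.145. The ribosomal sum was below that median on both scales, with log2 ratios of -0.094 and 0.023. On the CPM scale 76 of 78 ribosomal protein genes had ratios below 1, and 8 of 13 glycolysis genes. The mitochondrially encoded genes had ratios of 0.894 and 0.970 on the same scales. Of 14 genes of G1 cyclins and CDK inhibitors, Cdkn2d, a CDK4 inhibitor, was at least 2-fold higher (2.61, 1.89 to 3.61) and 0 were 2-fold lower, with Cdkn1a, the p53 target p21, at 0.587 (0.437 to 0.775) and Ccnd1 at 1.17 (1.00 to 1.37); the median log2 ratio was -0.10 and the ratio of the sum 1.04. For the immediate early and stress genes the median was -0.16 and the ratio of the sum 1.01, with Hspa8 at 1.14 and Fos at 0.675.

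The same rule, applied to NIH/3T3 and mESCs, gave ranges of their own. Among NIH/3T3 cells, 200 of 9057 genes (2.21%) were at least 2-fold higher and 61 (0.674%) lower, and 83 of 106 mitotic list genes were among the higher ones, with a ratio of the sum of 3.40 (3.35 to 3.45). In mESCs, 62 of 9080 (0.683%) were higher and 56 (0.617%) lower, with 29 of 107 mitotic list genes and a ratio of 1.58 (1.56 to 1.61). The N2a ratio of 2.22 lay between them. The sum of the 12 score genes ran in the same order, with ratios of 6.86 in NIH/3T3, 5.35 in N2a and 2.89 in mESCs. The comparison ranges were unlike, since the median score of low-score cells was 0.235% in mESCs, 0.117% in NIH/3T3 and 0.0924% in N2a. The ratio of Ccnb1 was 8.48 in the fibroblasts and 2.67 in the mESCs, with 4.86 in N2a between them, and that of Ccnb2 was 2.06 and 1.29, with 1.23 in N2a. Ung, at 0.197 in N2a, had ratios of 0.0676 in the fibroblasts and 0.788 in the mESCs. The histone sum had a ratio of 1.14 in the fibroblasts and 0.364 in the mESCs, against 1.94 in N2a. The score set its own limits in each line, and with 1 sample of each line the differences between lines were not tested.

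**Figure D5:**
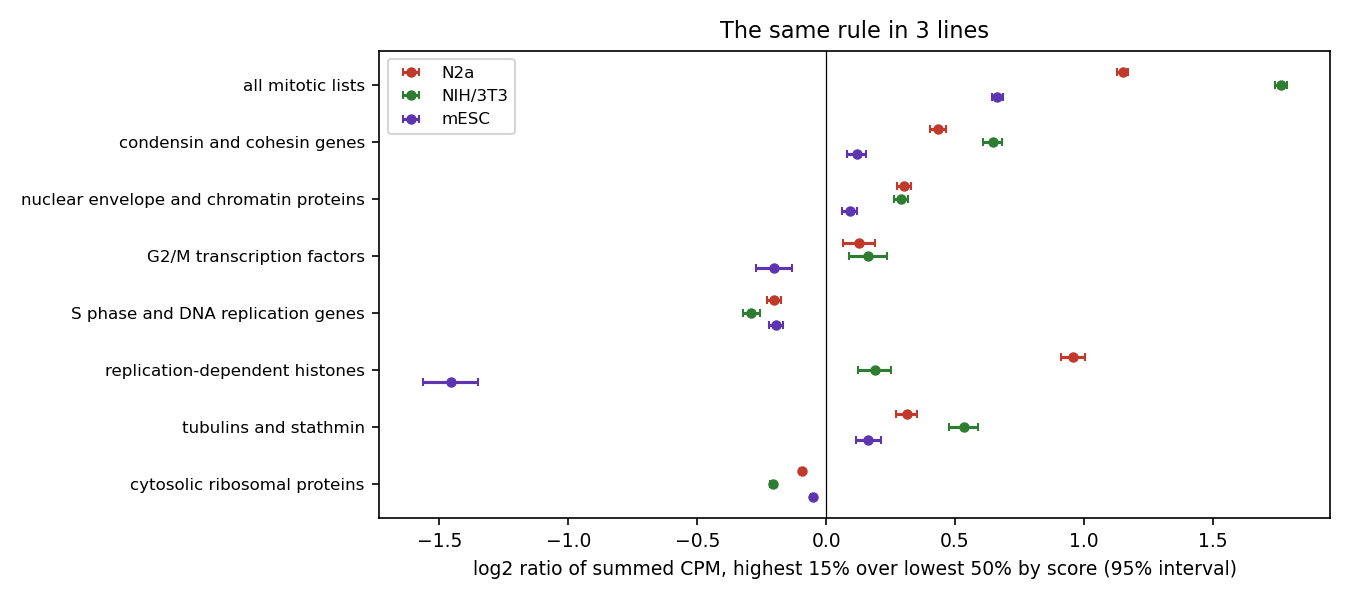
Log2 ratio of summed CPM, highest 15% over lowest 50% by score, for 8 gene groups in N2a, NIH/3T3 and mESCs, 1 sample each, with exact 95% intervals for counting error. The mitotic lists lie to the right of 0 in each line, and the histones at 0.96 in N2a and -1.46 in mESCs.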

How the data were processed

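UMI counts per gene and barcode were deposited by the authors as unfiltered matrices, 1 for each line and 1 for all lines pooled, which served only for an alternative count of the same barcodes. Per the labels and methods, the authors made them from poly(A) RNA with bcl2fastq, Cutadapt to trim the template-switch oligonucleotide, and STARsolo on GRCm39 with GENCODE M30, and split reads by the BC1 columns of each line. Whether intronic reads were counted is not given in the sources used here, and the levels of Malat1 and of long genes may depend on it. Each matrix had 33565 genes and up to 884736 possible barcodes.

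Barcodes were kept from 2000 UMIs upward if mitochondrial genes held 20% of them or less. Cells were ranked by the share of UMIs in the 12 score genes, and UMIs were summed over the highest 15%, the middle 35% and the lowest 50%. Genes needed at least 10 CPM over all kept N2a cells, and 2-fold was the limit for counts of genes. Intervals at 95% are exact Poisson intervals for levels and exact conditional binomial (Clopper-Pearson) intervals for ratios, and cover counting error only. Shares of cells were compared after drawing 2000 UMIs per cell. Doublets were not called. The 2 symbols shared by 2 identifiers were left out. Promoters and positions come from GENCODE M39 on GRCm39, in which 32953 of the identifiers were found.

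The members, the gene lists and the comparison were chosen with earlier results of these data known. Genes named were the score genes, 14 cell cycle and identity genes, in each list the 4 with the largest and the 2 with the smallest ratio, and outside the lists the 10 at either end with at least 20 CPM and an interval without 1. Exceptions are marked in the text. Other limits of the score, the comparison range, the scaling and the filter were tried. The scripts ran under matplotlib 3.10.9, pandas 2.3.3, scipy 1.17.1 and numpy 2.4.6 in Python 3.11.15, and the steps were tested on simulated data.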

Additional observations from a re-analysis of the deposited data

Results flagged for a closer look

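The summed replication-dependent histones had a ratio of members over low-score cells of 1.94 (1.88 to 2.01) in N2a and of 0.364 (0.338 to 0.392) in mESCs, on opposite sides of 1. From low-score cells over the middle range to members, the N2a sum was 1154, 2893 and 2245 CPM. In mESCs it was 1220, 899 and 445 CPM. Over 18 alternatives the N2a log2 ratio, 0.96 as computed, lay between 0.22 and 1.84. With 1 sample of each line the difference was not tested.

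The N2a barcodes with under 500 UMIs, which entered no comparison, carried 0.295% of their UMIs in the 12 score genes. Summed over cells, all kept N2a cells carried 0.260%, the low-score cells 0.101% and members 0.541%. A mixture of all cells would also lie above the low-score cells. They were 182565 barcodes with 2511011 UMIs in all.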

How the results depend on the processing

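The mitotic lists were higher in members under all 18 alternatives, with a log2 ratio of the sum between 0.70 and 1.63 beside 1.15 as reported, whereas the S phase list, at -0.20 as reported, lay between -0.37 and 0.16. As reported, 140 genes were at least 2-fold higher and 51 lower. With the highest 20% as members the mitotic value was 1.11 and the S phase value -0.17, and 33 genes were lower. Against the lowest 25%, 236 genes were higher, the mitotic value was 1.63, and the S phase sum (0.16) and Pcna (0.17) turned to the other side of 0. Against all other kept cells, 47 genes were higher, the values were 0.70 and -0.27, and the G2/M transcription factors turned to -0.0069. With the score taken after thinning to 2000 UMIs the values were 0.99 and -0.088, with 24 genes lower. Members chosen within 10 groups of like total UMIs gave a mitotic value of 1.12. Leaving Top2a out of the score gave 1.12 and -0.37, with the G2/M transcription factors at -0.00098, and leaving out Cenpf and Mki67 gave an S phase value of -0.13. The opening 6 score genes alone gave 1.13 and -0.13. Choosing on 50% of the UMIs and reading the remainder gave 1.09 and -0.16, with 80 genes lower. The mean of per-cell CPM gave an S phase value of -0.12. As unscaled UMIs per cell, the median of all genes was 0.145 in place of 0.029, the values were 1.27 and -0.086, 33 genes were lower, and ribosomal proteins (0.023) and glycolysis genes (0.022) turned above 0. Centring on the median gene gave 1.12 and -0.23. A minimum of 50 CPM left 4634 genes, 49 of them higher and 4 lower, while 1 UMI in each range as the minimum gave 1720 and 738 of 16623 genes, and a limit of 1.5-fold 443 and 224. The cause of these changes was not tested. Of the remaining values, for single genes and lists, 502 stayed within the interval reported and 141 left it. Among these only the immediate early and stress genes changed side, from a log2 ratio of 0.017, whose interval holds 0, to -0.0011 with at least 4000 UMIs, -0.00047 with the highest 20% and -0.011 after centring.

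Each line was 1 sample of 1 pooled library, no replicate was left out, and the spread between cultures is unknown. The members are an upper range of a continuous score, chosen on the same counts that describe them. Genes with few UMIs, such as Ung with 25 in members, are known to within wide intervals. No paired analysis was possible because each group had 1 sample and no test was run.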
